A study of Homo sapiens with 6 samples.

Results

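The genes described here were the nuclear-encoded genes of oxidative phosphorylation, taken by name as rows of the type mRNA whose symbol began with NDUFA, NDUFB, NDUFC, NDUFS, NDUFV, UQCR, COX4 to COX8 or ATP5, or was SDHA, SDHB, SDHC or SDHD. The rule found 96 genes among the 19756 mRNA rows of a table of 40173 genes. Of these members, 37 encoded subunits of complex I, 4 of complex II, 9 of complex III, 19 of complex IV and 16 of complex V. The other 11 were not subunits: 7 NDUFAF assembly factors, ATP5S, ATP5SL and the read-through genes NDUFC2-KCTD14 and ATP5J2-PTCD1. According to the study, RNA-Seq was done on A549, an established line of human lung adenocarcinoma cells, a day after transfection. The cells had received a negative control (control, n = 3 libraries) or an siRNA that targets the long noncoding RNA FAM83H-AS1 (silenced, n = 3 libraries). The study names no other cell line for these 6 libraries, and no other treatment was given in the labels. Some marker levels, given below, differ from those known for A549, and the identity of the cells was not tested. The comparison asked which transcripts differed after FAM83H-AS1 was silenced.

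Oxidative phosphorylation takes place in the inner membrane of mitochondria. Complexes I and II pass electrons from NADH and succinate to ubiquinone, complex III passes them on to cytochrome c, and complex IV reduces oxygen to water. Complexes I, III and IV pump protons, and complex V, the ATP synthase, uses the proton gradient to make ATP. A few core subunits of complexes I, III, IV and V are encoded by mitochondrial DNA, while all subunits of complex II and the remaining subunits of the others are made from nuclear genes and imported. Cancer cells often rely on glycolysis as well, and lung adenocarcinoma lines differ in how much they respire.

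Library totals ranged from 9738291 to 17742643 counts, and levels are given in CPM, that is counts relative to the effective library size after TMM, for replicates 1, 2 and 3 in that order. Fold changes are log2 values of silenced over control from edgeR's quasi-likelihood test, each with its standard error (SE), and p-values were adjusted over 15250 genes by the Benjamini-Hochberg method. The labels do not say whether the replicates were separate cultures, so that p-values measure only the spread between these libraries, which may be technical. FAM83H-AS1 fell from 15.9 ± 1.39 to 4.87 ± 0.617 CPM (SD, n = 3), with a log2 fold change of -1.70 (SE 0.148, adjusted p = 7.99e-05). In control replicate 3, 3.22% of the counts lay on the ribosomal RNA pseudogene RNA5-8SP6, against 0.241% to 0.448% in the other libraries. Some of the defining markers of A549 were absent or scarce: ALDH1A1 was at 0 to 0.149 CPM, AKR1B10 at 0.777 to 2.44 and KRT19 at 0.488 to 1.21, while CDKN2A, which A549 is known to have lost, was at 48.2 to 74.8. The epithelial markers EPCAM and CDH1 were also low, at 2.82 to 4.49 and 0.691 to 1.66 CPM. AKR1C1 was at 71.7 to 130 CPM, and KRT8, KRT18 and NQO1 were between 183 and 2081 CPM. KRT18, a keratin of simple epithelia, fell from 1316 to 977 CPM (log2 fold change -0.43, adjusted p = 0.00266). The 9 epithelial and A549 markers used here summed to 3187 to 3765 CPM in control and 2896 to 2920 CPM in silenced libraries. KRT8 and KRT18 made up most of these sums. The 9 markers of blood, endothelium, fibroblasts and liver summed to 150 to 172 CPM in the control and 253 to 293 CPM in the silenced libraries, nearly all of it CD68 and COL1A1, and PTPRC, CD3E, PECAM1 and ALB were at 0 to 0.149 CPM. CD68, a lysosomal protein abundant in macrophages, rose from 130 to 239 CPM (log2 fold change 0.88, adjusted p = 9.93e-05), and the part of these differences in the results was not tested.

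Where members passed the test, nearly all were lower after silencing, by less than 2-fold. Of the 96 members, 91 passed the filter on low counts, 23 of them were lower and 1 was higher with an adjusted p under 0.05, and 67 did not pass the test. Over all tested genes, 8.27% were lower and 8.75% higher, against 25.3% and 1.1% of the tested members. Without a filter on low counts, 38 members were lower and 1 higher, where 7.33% of 25864 genes were lower and 6.01% higher. The median log2 fold change of the members hardly moved there (-0.233 in place of -0.223), while adjusted p-values were far smaller. That of NDUFS6 was 6.23e-08 in place of 0.0337, and that of FAM83H-AS1 2.58e-21 in place of 7.99e-05. The lower members had log2 fold changes between -0.71 and -0.23. With the additional condition of a fold change over 2, the rule in the methods of the study, no member was lower. The same held at an unadjusted p under 0.05 (edgeR, 0) and with DESeq2 (0). Only NDUFA4L2 was higher, where 0.997% of all tested genes were lower and 1.14% higher. The results of the study give an FDR under 0.01 with that fold change. At an adjusted p under 0.01, no member was called at over 2-fold. The share of all tested genes under both of these conditions was not counted, so that this 0 does not set the members apart. The median log2 fold change was -0.22 over the members and -0.00 over all tested genes, and 76 of 91 members (83.5%) lay below 0, against 50.1% of all tested genes. In 35 of the 91 members every silenced library was below every control library, as it was in 17.5% of all tested genes. The reverse held for 2 members, NDUFAF3 and UQCRFS1, and for 19.1% of all tested genes.

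The shift was seen in each silenced library but differed in size. Relative to the control mean, the median member was at -0.21, -0.29 and -0.14 on the log2 scale in silenced replicates 1, 2 and 3, and between -0.02 and 0.01 in the control libraries. Silenced replicate 2 was the lowest of the 6 libraries for 18 of the 23 lower members, silenced replicate 1 for 4 and silenced replicate 3 for 1. The number of lower members was 10 without silenced replicate 1 and 14 without silenced replicate 2, and between 16 and 29 when any of the other libraries was left out. Calls over all genes in either direction fell as well, from 2595 to 1225 without silenced replicate 1 and to 1867 without silenced replicate 2. They lay between 1759 and 1962 when any of the other libraries was left out. All 10 members lower without silenced replicate 1 were among the 23, and they passed with each of the 6 libraries left out: NDUFA3, NDUFA6, NDUFAB1, NDUFB2, NDUFS8, SDHC, UQCRC1, NDUFA4, ATP5B and ATP5D. In bulk libraries, a lower count can come from fewer cells with the transcript or from less of it per cell, and these cannot be told apart.

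**Figure D1:**
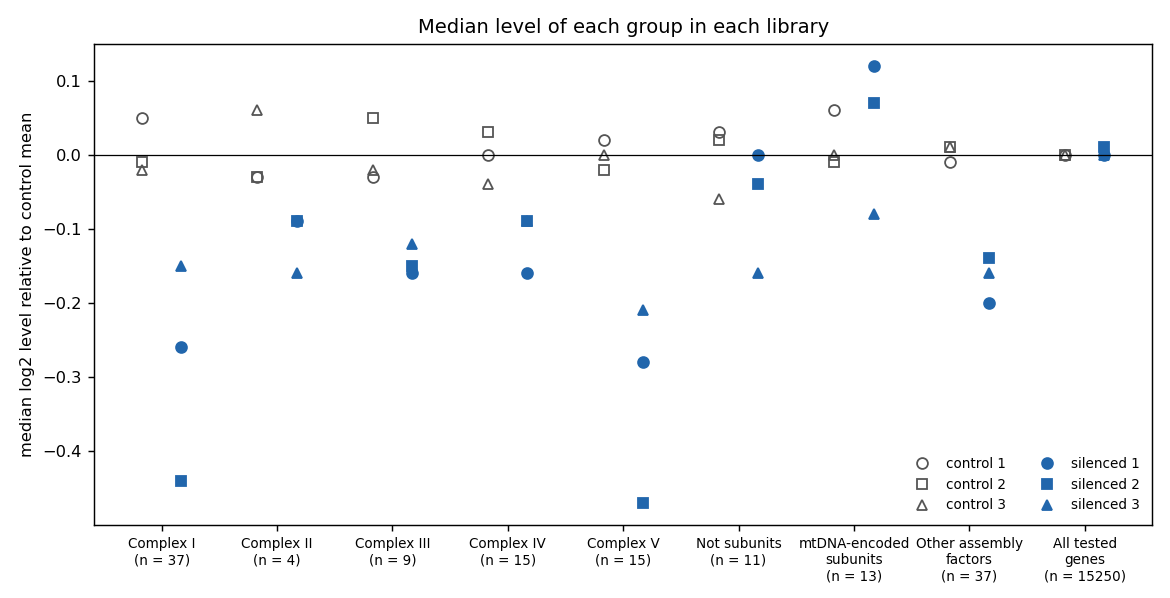
Median log2 level of the tested genes of each group in each library, relative to the control mean (y axis, CPM with 0.5 added), with open grey symbols for control and filled blue symbols for silenced replicates 1 (circle), 2 (square) and 3 (triangle). The silenced libraries lay at -0.26, -0.44 and -0.15 for complex I and at -0.28, -0.47 and -0.21 for complex V, while all tested genes stayed between -0.00 and 0.01.

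Each complex had at least 1 lower member, where 8.27% of all tested genes were lower. Complex I had 10 lower members of 37 tested (27.0%) and complex V 7 of 15 (46.7%). Lower were also 1 of 4 in complex II, 2 of 9 in complex III (22.2%) and 2 of 15 in complex IV (13.3%). Of the 11 members that are not subunits 1 was lower (9.09%), close to the share of all tested genes. Median log2 fold changes were -0.27 and -0.30 in complexes I and V, and -0.09, -0.16 and -0.09 in complexes II, III and IV. The summed level of complex I fell from 2931 ± 142 to 2376 ± 223 CPM (SD, n = 3), or to 81.0% of the control, and that of complex V from 3052 ± 36.1 to 2424 ± 134 CPM, or to 79.4%. The sums of complexes II, III and IV were at 91.9%, 86.1% and 91.5% of the control. These differences between complexes were not tested.

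**Figure D2:**
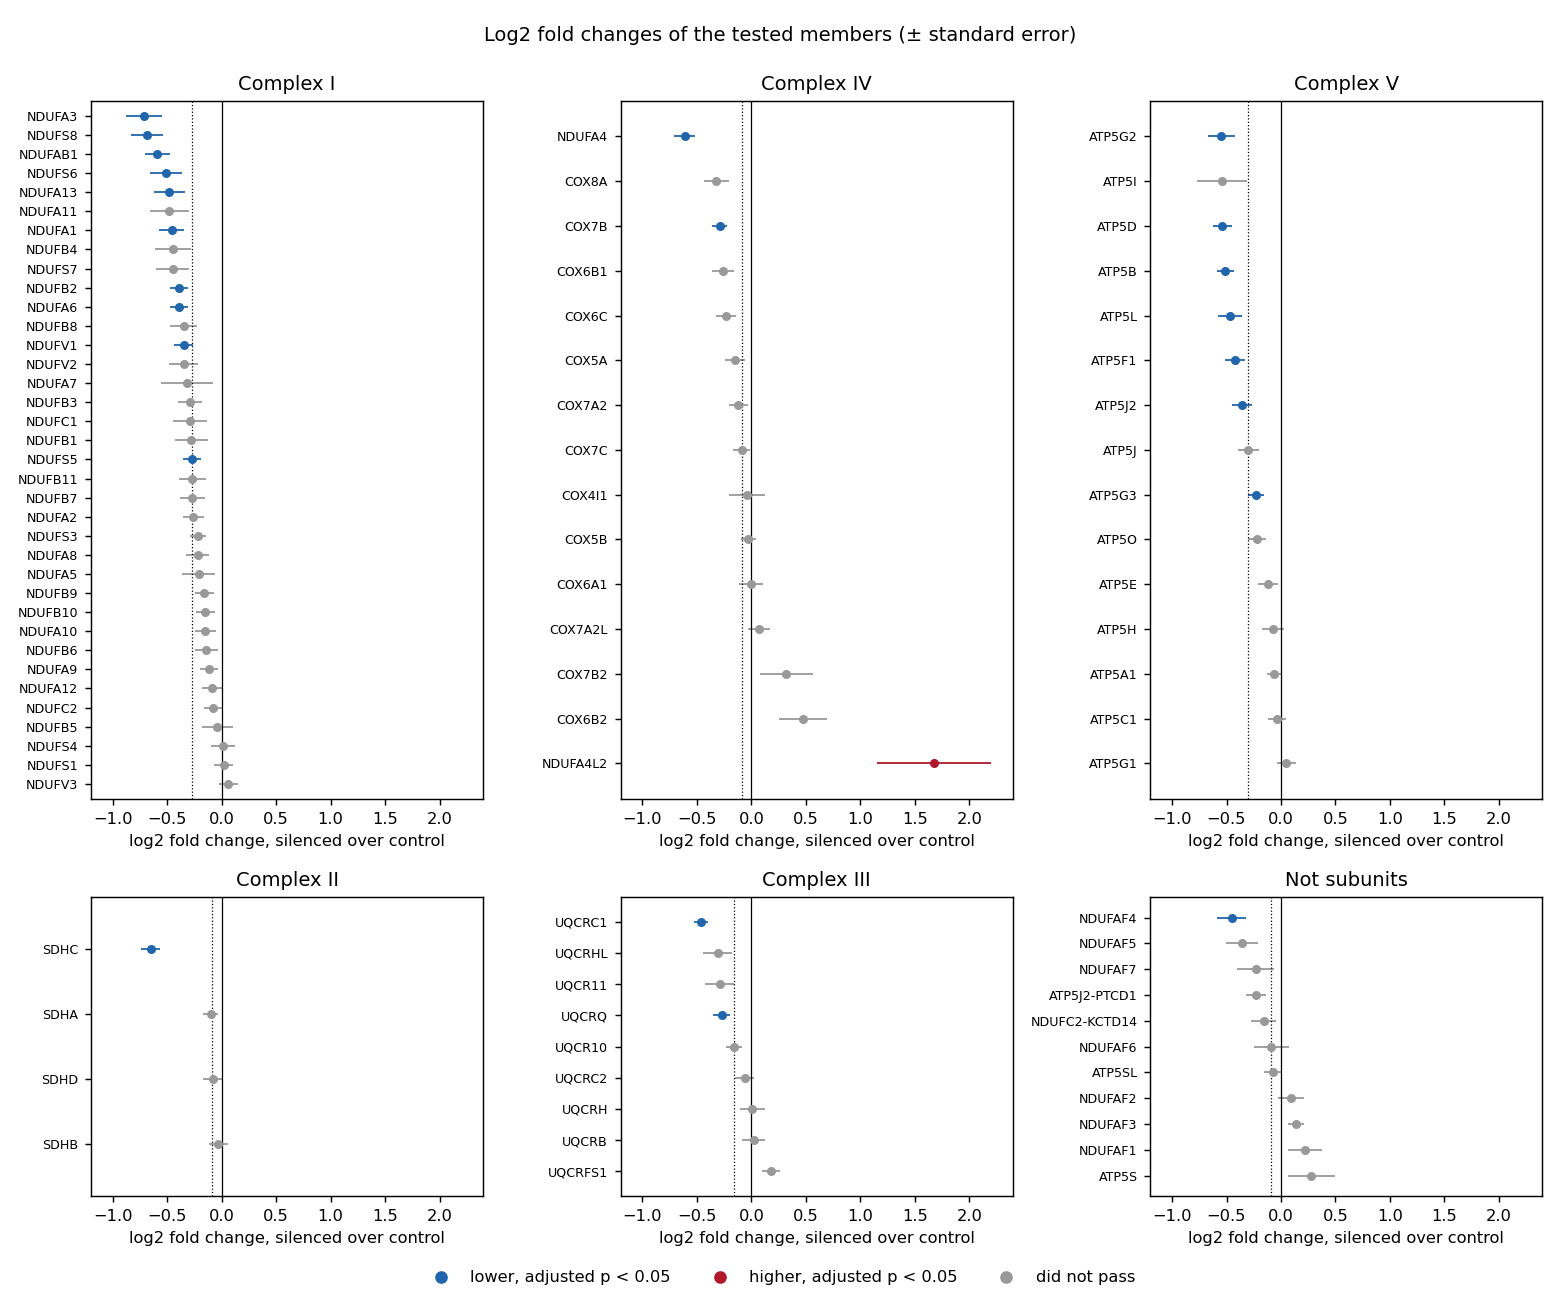
Log2 fold change of 90 of the 91 tested members with its standard error (x axis, silenced over control), by complex, where the dotted line is the median of the tested members of the group. Blue points mark the 23 lower members, the red point NDUFA4L2 and grey points 66 members that did not pass the test.

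Complex I is the entry point for electrons from NADH. Its core holds the flavin and the iron-sulfur clusters, and 2 of its 7 nuclear-encoded core subunits were lower. NDUFS8, which carries iron-sulfur clusters of the peripheral arm, was at 153, 108 and 116 CPM in control and at 76.5, 64.1 and 92.2 CPM in silenced libraries, with a log2 fold change of -0.69 (SE 0.147, adjusted p = 0.00996). NDUFV1, which binds NADH and the flavin, was at 215, 190 and 204 against 160, 145 and 173 CPM (log2 fold change -0.35, SE 0.0837, adjusted p = 0.0173). The groups did not overlap for either gene, and each fell by less than the 2-fold set by the study. NDUFV1 did not pass without control replicate 1, silenced replicate 1 or silenced replicate 2, with adjusted p between 0.0504 and 0.069. The iron-sulfur subunits NDUFS7 (log2 fold change -0.45, adjusted p = 0.0623) and NDUFV2 (-0.35, adjusted p = 0.0911) and the core subunit NDUFS3 (-0.22, adjusted p = 0.054) had no overlap of the groups either but did not pass, and NDUFS1 was at 0.02.

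The accessory subunits of complex I surround this core, and 8 of 30 were lower. NDUFA3, a small membrane subunit, had the lowest log2 fold change of all members, at -0.71 (SE 0.164, adjusted p = 0.0146). Its levels were 50.4, 40.9 and 33.7 CPM in control and 28.2, 19.4 and 28.1 CPM in silenced libraries, so that the groups did not overlap but control replicate 1 stood well above control replicate 3. NDUFAB1, the mitochondrial acyl carrier protein that also serves fatty acid and lipoic acid synthesis, was at 38, 35.9 and 36.2 against 23.6, 20.6 and 28.4 CPM (log2 fold change -0.59, SE 0.114, adjusted p = 0.00623). NDUFA6, the LYR-motif subunit that binds an acyl carrier protein, was at 44.6, 43.7 and 47.9 against 35.3, 33 and 35.7 CPM (-0.39, SE 0.0809, adjusted p = 0.00907). NDUFB2, in the membrane arm, had the same log2 fold change of -0.39 (adjusted p = 0.00963). These 4 genes passed whichever library was left out.

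The calls of the remaining lower accessory subunits depended on single libraries. NDUFS6, a zinc-binding subunit, was at 275, 220 and 188 CPM in control and 157, 133 and 189 CPM in silenced libraries, and it was the only lower member whose groups overlapped (log2 fold change -0.51, adjusted p = 0.0337). It did not pass with DESeq2 (-0.52, adjusted p = 0.087). NDUFA13, also known as GRIM-19 for its link to interferon- and retinoid-induced cell death, was at 215, 179 and 169 against 138, 103 and 161 CPM (-0.48, adjusted p = 0.0407). NDUFA1, an X-linked membrane subunit, was at 50.3, 47.4 and 46.6 against 31.1, 31.2 and 42.0 CPM (-0.46, adjusted p = 0.0205). In all 3, silenced replicate 3 was the highest of its group, and none passed without control replicate 1 or 2 or silenced replicate 1 or 2, with adjusted p between 0.0527 and 0.13. NDUFS5, on the intermembrane side (-0.27, adjusted p = 0.048), did not pass without control replicate 2 or 3 or silenced replicate 1 or 2, with adjusted p between 0.112 and 0.165, nor with libraries scaled by their size only (adjusted p = 0.0634). Of the 37 complex I members, 34 had a log2 fold change below 0, and NDUFV3, an accessory subunit of the NADH-binding part, had the highest, at 0.06 (adjusted p = 0.661). The number of lower complex I members was 5 without silenced replicate 1 and 5 without silenced replicate 2, and 15 without silenced replicate 3. Over all genes, 1225, 1867 and 1962 passed in these fits, in that order, in place of 2595.

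Complex II, or succinate dehydrogenase, is shared with the citric acid cycle, and 1 of its 4 subunits was lower. SDHC, which anchors the enzyme in the membrane and helps bind ubiquinone, fell from 65.6, 57.8 and 66.5 to 38.5, 39.1 and 43.3 CPM, with a log2 fold change of -0.65 (SE 0.0866) and the smallest adjusted p of all members, 0.000974. It passed without any of the libraries. SDHD, the other membrane anchor, was at 38.6, 43.0 and 38.1 against 37, 40.1 and 35.8 CPM, with overlapping groups (log2 fold change -0.08, adjusted p = 0.545). The flavoprotein SDHA was at 667, 664 and 710 against 641, 597 and 668 CPM (-0.10, adjusted p = 0.364), and the iron-sulfur protein SDHB at 112, 112 and 118 against 108, 126 and 101 CPM (-0.03, adjusted p = 0.864). Each of the latter 3 had overlapping groups, and SDHB turned to 0.01 when libraries were scaled by their size only.

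In complex III, 2 of 9 members were lower. UQCRC1, a core protein on the matrix side, was at 389, 409 and 390 CPM in control and 283, 279 and 302 CPM in silenced libraries. The groups were far apart relative to their spread, with a log2 fold change of -0.46 (SE 0.0666, adjusted p = 0.0016), and the gene passed without any of the libraries. UQCRQ, a small membrane subunit, was at 160, 152 and 151 against 125, 119 and 140 CPM (-0.27, adjusted p = 0.0388). It passed only when silenced replicate 3 was left out, and the adjusted p without any other library lay between 0.0614 and 0.139. With libraries scaled by their size only the adjusted p was 0.0649. UQCRFS1, the Rieske iron-sulfur protein that takes electrons from ubiquinol, had the highest log2 fold change of the complex. It was at 48.8, 54.5 and 47.0 against 58.1, 57.5 and 55.2 CPM, with every silenced library above every control library, but at 0.18 (SE 0.0808, adjusted p = 0.141) did not pass. UQCRC2, UQCRB and UQCRH lay between -0.06 and 0.02.

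Complex IV had 2 lower members, 1 higher member and 4 without a count in any library. NDUFA4, first assigned to complex I and now counted as a subunit of complex IV, was at 134, 137 and 144 CPM in control and 91.3, 78.3 and 103 CPM in silenced libraries (log2 fold change -0.61, SE 0.0964, adjusted p = 0.00246). It passed without any of the libraries. COX7B was at 131, 132 and 140 against 108, 107 and 115 CPM (-0.29, adjusted p = 0.0197), and did not pass without control replicate 3, silenced replicate 1 or silenced replicate 2, with adjusted p between 0.0507 and 0.0901. The other widely expressed subunits did not pass, among them COX4I1 (-0.04), COX6A1 (-0.00), COX6B1 (-0.26), COX7A2 (-0.12) and COX8A (-0.32). COX4I1, the common isoform of subunit IV, was at 461, 466 and 283 CPM in control and 395, 343 and 436 CPM in silenced libraries, so that control replicate 3 was the lowest of all. Its log2 fold change was 0.06 without control replicate 1 and -0.25 without control replicate 3.

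NDUFA4L2, the paralog of NDUFA4 that is a known target of hypoxia-inducible factor, was the only member that was higher with an adjusted p under 0.05. It had 12, 30 and 19 counts in control and 86, 16 and 79 counts in silenced libraries, or 1.23, 2.59 and 1.12 against 8.40, 1.48 and 5.87 CPM. Silenced replicate 2 was within the control range, so that the groups overlapped. The log2 fold change was 1.68 (SE 0.524, adjusted p = 0.0485). The test was passed only when silenced replicate 2 was left out, and the adjusted p without any other library lay between 0.0523 and 0.192. Per kb of annotated transcript, NDUFA4 was at 64.9 and NDUFA4L2 at 1.40 CPM in the control.

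Complex IV is also the complex with the most tissue-specific isoforms, and these cells mainly used the common ones. COX4I2, an oxygen-regulated isoform known from lung, and COX6A2, COX7A1 and COX8C had 0 counts in all 6 libraries. In the control, COX6B1 was at 260 CPM per kb and its testis isoform COX6B2 at 2.45, while COX7A2 was at 119 and COX7A2L, which takes part in joining complexes III and IV, at 75.7. COX7B was at 301 CPM per kb and its isoform COX7B2 at 7.04, and COX7B2 did not pass (log2 fold change 0.32, adjusted p = 0.401). COX6B2 was at 4.01, 3.89 and 4.32 CPM in control and 6.93, 4.16 and 5.95 CPM in silenced libraries. The groups overlapped, and its log2 fold change of 0.47 did not pass (SE 0.22, adjusted p = 0.162). COX7A2L was at 0.07 (adjusted p = 0.647).

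In complex V, 7 of 15 tested members were lower, and they came from the catalytic head, the membrane ring and the stalks. ATP5B, the catalytic beta subunit and the member with the highest control level per kb of transcript (661 CPM), was at 1176, 1238 and 1232 CPM in control and 773, 875 and 909 CPM in silenced libraries. With a log2 fold change of -0.51 (SE 0.0761, adjusted p = 0.00173), it accounted for most of the fall in the summed level of the 5 subunits of the head and central stalk, from 1921 ± 41.0 to 1512 ± 93.8 CPM (SD, n = 3). ATP5D, the delta subunit of the central stalk, was at 59.8, 51.9 and 50.4 against 37.8, 37.1 and 36.6 CPM (-0.54, SE 0.0866, adjusted p = 0.00261). Both passed without any of the libraries, and the groups were apart. ATP5D was at -0.31 (adjusted p = 0.0165) with a trend of each library with GC content removed, and with the trends with transcript length and GC content both removed it did not pass (-0.17, adjusted p = 0.233). ATP5A1, the alpha subunit that alternates with beta in the head, was at 412, 434 and 429 against 387, 443 and 396 CPM, and with ATP5C1 (gamma) and ATP5E (epsilon) it lay between -0.12 and -0.04 and did not pass.

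The c ring, which turns as protons pass, is built from copies of a protein that 3 genes encode with the same mature sequence. Of these genes, 2 were lower. ATP5G2 was at 236, 211 and 223 CPM in control and 152, 121 and 184 CPM in silenced libraries (log2 fold change -0.55, SE 0.124, adjusted p = 0.0134), and did not pass without silenced replicate 1 (adjusted p = 0.055). ATP5G3 was at 121, 112 and 117 against 96.4, 104 and 97.4 CPM (-0.23, adjusted p = 0.0466), and passed only when silenced replicate 2 was left out, with adjusted p between 0.0686 and 0.168 without the others. With libraries scaled by their size only it did not pass (-0.20, adjusted p = 0.0992). ATP5G1 was at 122, 151 and 134 against 143, 149 and 130 CPM, with overlapping groups (0.05, adjusted p = 0.754). The sum of the 3 genes was 475.9 ± 2.83 CPM in control and 392.2 ± 18.9 CPM in silenced libraries (SD, n = 3). Per kb of transcript, the control levels were 227, 115 and 139 CPM for ATP5G1, ATP5G2 and ATP5G3. This order rests on 1 annotated transcript per gene, of 598, 1950 and 842 bases. Without division by length ATP5G2 was the highest, with control means of 136, 223 and 117 CPM in the same order of genes. Whether the changes of the 3 genes differ from each other was not tested.

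Among the stalk and other membrane subunits of complex V, ATP5L (subunit g) was at 92.6, 91.1 and 83.7 against 62, 54.9 and 75.8 CPM (log2 fold change -0.47, adjusted p = 0.0154), ATP5F1 (subunit b) at 146, 142 and 144 against 105, 96.1 and 122 CPM (-0.42, adjusted p = 0.0109). ATP5J2 (subunit f) was at 180, 181 and 204 against 148, 130 and 162 CPM (-0.36, adjusted p = 0.0221). The groups did not overlap in any of these, and silenced replicate 2 was the lowest in each. ATP5L and ATP5F1 did not pass without silenced replicate 1 (adjusted p = 0.068 and 0.0561), and ATP5J2 not without control replicate 3, silenced replicate 1 or silenced replicate 2, with adjusted p between 0.0614 and 0.0777. ATP5I (-0.54), ATP5J (-0.30), ATP5O (-0.22) and ATP5H (-0.07) did not pass. Without silenced replicate 1, 2 members of complex V were lower in place of 7, where 1225 genes passed in all in place of 2595. ATP5L2, a copy of ATP5L, had between 5 and 13 counts per library and was below the filter.

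**Figure D3:**
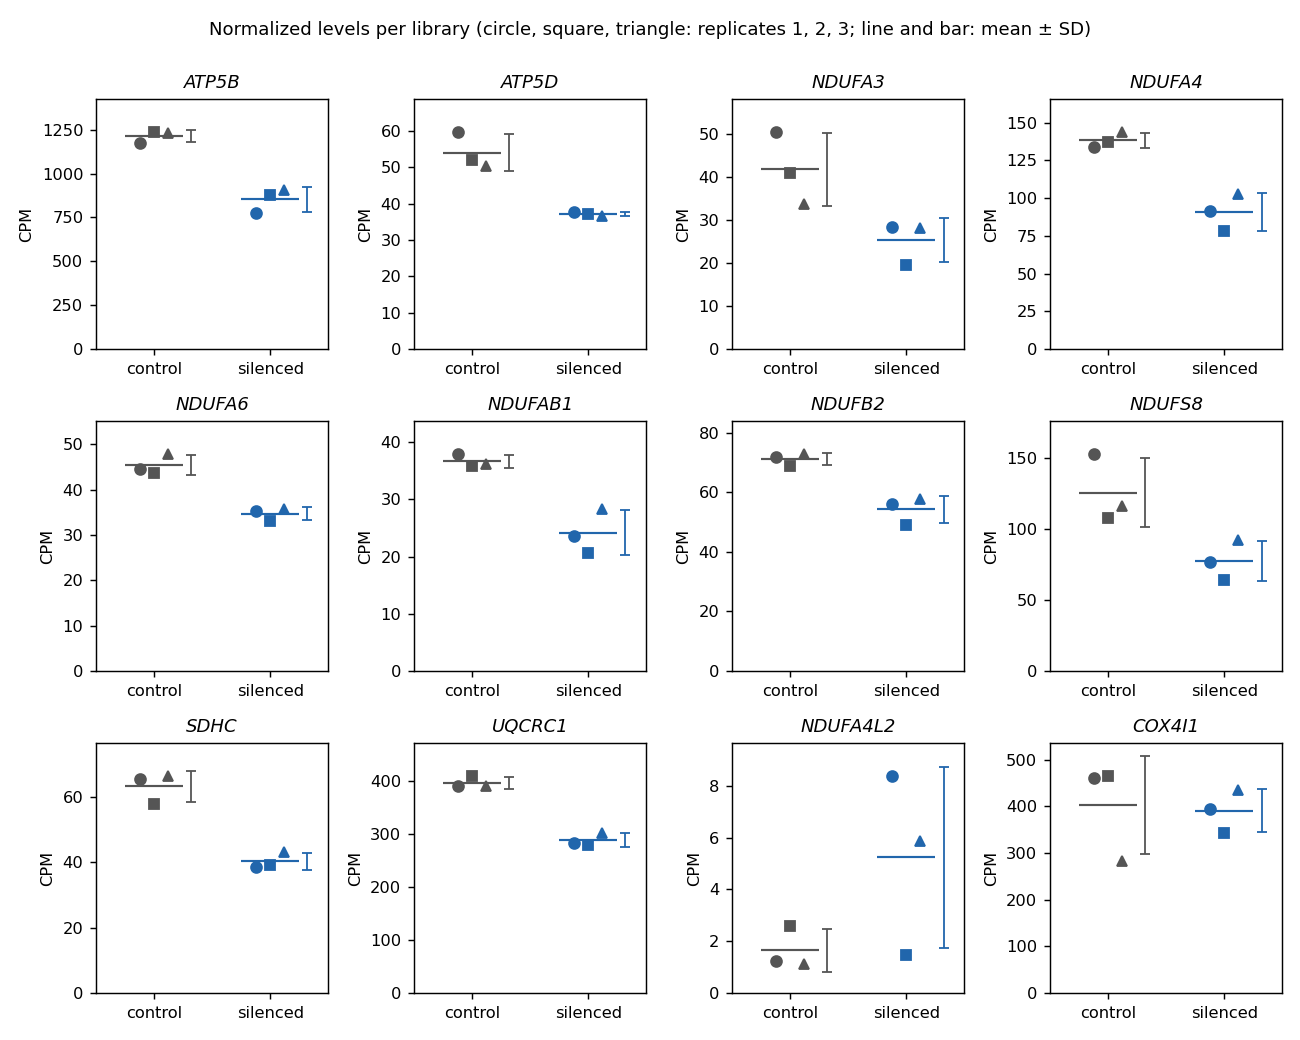
CPM per library (y axis from 0) of the 10 lower members that passed with each library left out in turn, of NDUFA4L2 and of COX4I1, with the mean as a line and the SD as a bar beside it (n = 3). In the first 10 panels the groups do not overlap, whereas silenced replicate 2 of NDUFA4L2 (1.48 CPM) and control replicate 3 of COX4I1 (283 CPM) differ from the rest of their group, the former lying within the control range and the latter below all other libraries.

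Of the 11 members that are not subunits, NDUFAF4, an assembly factor of complex I, was lower, at 11.8, 13.6 and 11.3 against 9.18, 8.41 and 9.14 CPM (log2 fold change -0.45, SE 0.133, adjusted p = 0.0395). The groups did not overlap, but it passed only when control replicate 3 was left out, with adjusted p between 0.0654 and 0.13 without the others. It did not pass with libraries scaled by their size only (adjusted p = 0.0635) or with DESeq2 (adjusted p = 0.0981) either. Its partner NDUFAF3 was at 97.2, 96.2 and 91.6 against 106, 99.7 and 109 CPM (0.14, adjusted p = 0.199). ATP5S, known as coupling factor B, was at 0.28 (adjusted p = 0.39). The summed level of the 11 was at 97.3% of the control.

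All 13 subunits encoded by mitochondrial DNA were tested, and 0 were lower, where 8.27% of all tested genes were. Of the 13, 1 (7.69%, against 8.75% of all tested genes) was higher just within the threshold, ND2, with a log2 fold change of 0.23 (edgeR, adjusted p = 0.0494). At an unadjusted p under 0.05, 1 was lower and 2 were higher, and with DESeq2 1 was lower and 1 higher. Their median was 0.06, and their summed level was 41959 ± 614 CPM in control and 42852 ± 1290 CPM in silenced libraries (SD, n = 3), or 102% of the control. Of 5 other tested nuclear genes of the system, USMG5, a small subunit of the ATP synthase, was lower (-0.65, adjusted p = 0.00109). CYC1, cytochrome c1 of complex III, was at -0.25 (adjusted p = 0.0774) and CYCS, cytochrome c, at 0.03 (adjusted p = 0.877).

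Among 37 tested assembly factors with other names, 6 (16.2%) were lower and 1 (2.7%) higher, against 8.27% and 8.75% of all tested genes. The median of these factors was -0.18. C11orf83, now called UQCC3 and needed for complex III, was at 12.7 ± 0.764 CPM in control and 5.94 ± 1.35 CPM in silenced libraries (SD, n = 3), with a log2 fold change of -1.10 (adjusted p = 0.00218), which is more than 2-fold. Also lower were COX18 (-0.90), which inserts a complex IV subunit into the membrane, BCS1L (-0.46), which places the Rieske protein in complex III, COX11 (-0.39), a copper chaperone of complex IV, ECSIT (-0.36), a complex I assembly factor, and MNF1 (-0.31), now UQCC2. LRPPRC, which stabilizes mitochondrial mRNAs, was higher (0.36, adjusted p = 0.0159). Of 15 tested regulators of respiratory genes and mitochondrial DNA, edgeR found 0 lower and 0 higher at an adjusted p and 1 of each at an unadjusted p under 0.05, DESeq2 found 0 and 0, and their median was -0.03. NRF1, GABPA, YY1 and TFAM were at -0.25, 0.09, -0.13 and 0.02, and PPARGC1A, a coactivator of mitochondrial biogenesis, at 0.28 (adjusted p = 0.0786).

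Members are short transcripts, and short mRNAs tended to be lower in the silenced libraries. The median annotated transcript was 1078 bases long over the members and 3003 over 12065 tested mRNAs. Of the 668 tested mRNAs under 1000 bases, 17.8% were lower, with a median log2 fold change of -0.16, against 27.3% and -0.26 for the 44 members of that length. From 1000 to below 2000 bases the shares lower were 11.4% of mRNAs and 28.0% of the 25 members, from 2000 to below 4000 bases 8.88% and 23.1% (13 members), and from 4000 bases 6.83% and 11.1% (9 members). The medians of the members were below those of the mRNAs in each class, by length -0.21 against -0.06, -0.12 against 0.00 and -0.06 against 0.06 in the latter 3. Short mRNAs also showed the differences between silenced libraries, with medians of -0.14, -0.24 and -0.07 in replicates 1, 2 and 3.

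With each library's trend with transcript length removed, a setting chosen after the data had been seen, 17 members were lower and 1 was higher, or 18.7% lower against 11% of the mRNAs tested. All 17 were among the 23. NDUFS5, NDUFB2, UQCRQ, COX7B, ATP5G3 and ATP5J2 no longer passed. The median log2 fold change of the members moved from -0.22 to -0.09, that of complex I to -0.15, that of complex V to -0.15, and that of complex IV to 0.09, above 0. SDHC, NDUFA4, NDUFA3 and NDUFS8 then had log2 fold changes of -0.74, -0.59, -0.59 and -0.55. Length is that of 1 annotated transcript per gene, which for SDHC is a form of 13566 bases. With the trend with GC content removed instead, 35 members were lower and 2 higher, where 13.1% of the mRNAs tested were lower and 13.8% higher, and 3235 genes passed in all in place of 2595. With both trends removed 18 were lower and 2 higher, where 12.6% and 13.6% of the mRNAs were, and ATP5D was then among the 7 of the 23 that did not pass.

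**Figure D4:**
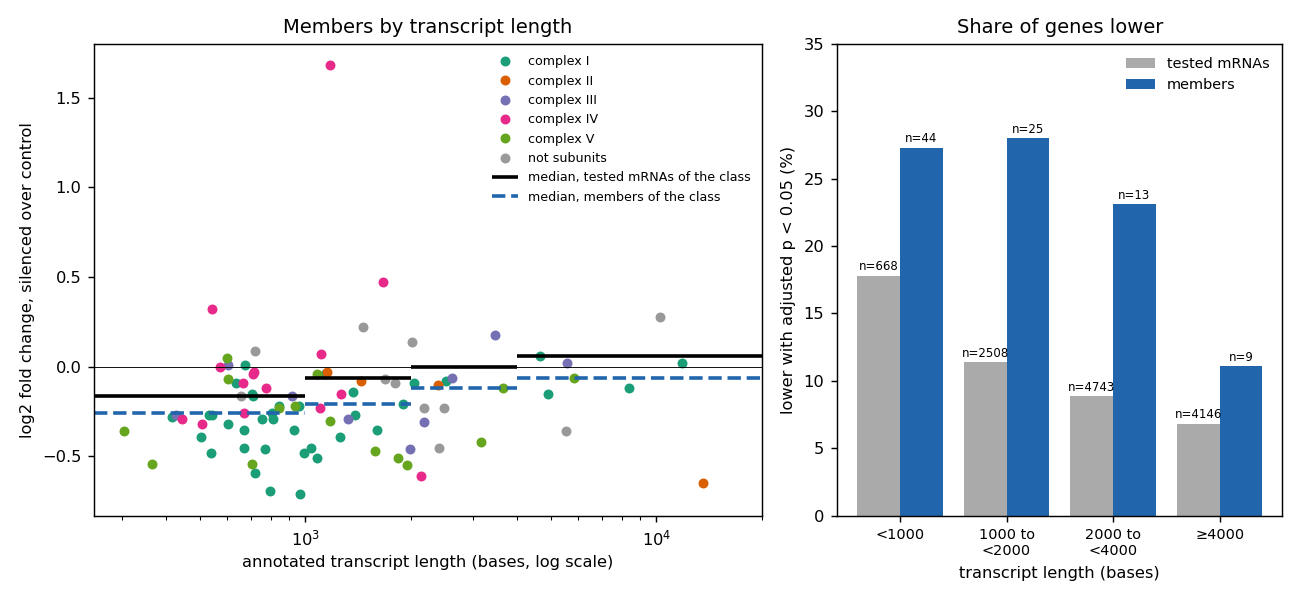
Left, log2 fold change of the 91 tested members against the length of the annotated transcript (log scale), coloured by complex, with the median of all tested mRNAs (black) and of the members (dashed blue) in 4 length classes. Right, the share of each class that was lower with an adjusted p under 0.05, which was above that of all tested mRNAs in each class, 27.3% against 17.8% under 1000 bases.

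Promoters of respiratory genes are known for sites of NRF1, of the ETS factor GABPA and of YY1, and the letters of these motifs were searched on both strands from 250 bases before to 50 after the start site. RefSeq promoters on GRCh38.p14 were matched for 73 of the 91 tested members. The NRF1 motif (GCGC, any 2 bases and GCGC again) was in 23.3% of them, in 16.3% of the promoters of tested mRNAs and in 8.78% of all promoters. The ETS motif (CCGGAAG) was in 27.4%, 19.7% and 10.7%, and the YY1 motif (AAGATGG) in 21.9%, 7.74% and 6.06%. The ETS and YY1 motifs can share the bases AAG. Among the 16 lower members with a promoter, 2 held the NRF1, 5 the ETS and 5 the YY1 motif. Only some of the sites in lower members are shown, and further sites of NDUFA3 and those of ATP5L, ATP5F1, NDUFAF4 and UQCRQ are left out. The following stretches have the motif or its reverse complement in capitals and are on the strand of the gene.
NDUFA3, NRF1, chr19:54102676-54102703: tgcgcgagtGCGCACGCGCaggctccga
UQCRC1, NRF1, chr3:48609675-48609702: tacggtactGCGCCTGCGCcgcgaccgc
NDUFA1, ETS, chrX:119871776-119871800: ccgtcgcttCTTCCGGagccgtacg
NDUFA13, ETS, chr19:19516206-19516230: cgcccgggaCCGGAAGtgtgggata
NDUFA6, YY1, chr22:42090732-42090756: tgctttggcAAGATGGcggggagcg
UQCRC1, YY1, chr3:48609608-48609632: tgcagctggAAGATGGcggcgtccg
In NDUFA6 and UQCRC1 the YY1 motif began 25 and 23 bases after the start site. The motifs were found both in members that fell and in members that did not pass, of which 15 of 57 held the NRF1, 15 the ETS and 11 the YY1 motif.

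The sequence CCAATAA in the 3′-UTR was known from earlier results of these data to go with lower levels, so that its pattern in the members is not independent of that. In all 11910 tested mRNAs with a 3′-UTR, the median log2 fold change was -0.13 for the 1157 that hold it and 0.01 for the rest. Of the 91 tested members 8 hold it, or 8.79% against 9.71% of all mRNAs, with a median of -0.41 against -0.22 for the other 83. Of the 8, 4 were lower, against 19 of the other 83 members. Of all tested mRNAs with a 3′-UTR, 303 of the 1157 that hold it were lower and 788 of the 10753 others. For the 8 members, the first site of each 3′-UTR in GENCODE 29 is shown, with the 7 bases in capitals, by increasing log2 fold change.
NDUFA3: cacggctcCCAATAAaaatgtga
NDUFS8: cctgctgcCCAATAAaaccactc
ATP5B: taaggtttCCAATAAaatgtaca
UQCRC1: ggtgaccaCCAATAAaatcctct
NDUFAF5: aggcctggCCAATAAccatttct
COX7A2: aactgccaCCAATAAagcagtct
NDUFC2: gcccactgCCAATAAagtctcat
NDUFS1: tcctgttcCCAATAActtcctca
In NDUFS8, ATP5B and UQCRC1 the site began 23, 21 and 22 bases before the 3′ end of the annotated transcript, where the poly(A) signal AATAAA lies, and each of these sites overlaps that signal, of which the last base follows the site. In NDUFA3 it began 629 bases before that end. In the 4 members that did not pass it began between 126 and 5672 bases before that end. The sites of NDUFA3 and of COX7A2 and NDUFC2, which did not pass, are also followed by A and so hold AATAAA. Those of NDUFAF5 and NDUFS1 are followed by C. None of the 4 strands listed for the siRNAs against FAM83H-AS1 pairs with CCAATAA through bases 2 to 8, the seed. Only a match of all 7 bases was looked for, and the methods of the study do not say which siRNA was used for RNA-Seq. Whether the siRNA has a part in the pattern was not tested.

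Several members have processed copies elsewhere in the genome, and how the authors' counting treated reads that match more than 1 place is not stated. The copies of COX6A1, UQCRFS1, ATP5E, NDUFA4 and SDHD that the table lists held counts equal to 37.4%, 33.2%, 23.3%, 20.1% and 16.2% of those of the gene itself. NDUFA4P1, the copy of NDUFA4, had 304, 323 and 445 counts in control and 191, 152 and 290 counts in silenced libraries, with a log2 fold change of -0.64 (SE 0.143, adjusted p = 0.0123). This is close to the value of NDUFA4 itself. The copies COX6A1P2 (0.13), UQCRFS1P1 (-0.08) and ATP5EP2 (-0.27) did not pass, and for these genes and their copies the division of counts is uncertain. The same holds for UQCRHL, a copy of UQCRH, and for the read-through genes NDUFC2-KCTD14 and ATP5J2-PTCD1, which overlap NDUFC2 and ATP5J2.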

How the data were processed

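Libraries of total RNA were made with an Ion Proton kit, and the authors mapped the reads and assigned them to genes with MapSplice. The deposited table holds raw counts per gene, without normalization. Per the labels, the build was GRCh37. How strands and multiply mapped reads were treated is not given in the sources used here. Counts were tested with edgeR 4.0.16 in R 4.3.3 (filterByExpr, TMM, quasi-likelihood F test, two-sided, no covariates), adjusted over 15250 genes, after the code was checked on simulated data. An exact permutation test of 3 against 3 libraries cannot go below p = 0.1. The SE was derived from the F statistic. Within each group, the libraries varied beyond counting error (chi-square per degree of freedom 3.92 to 26.8). The members and lists were chosen with earlier results of these data known. Named members were the 14 with the largest change among those that passed, all called at over 2-fold, the highest and lowest fold change and highest level of each complex, complex II and isoform families. Other members are named beside a count, a lost call or a sequence, after their values were seen. Transcripts came from GENCODE 29 on GRCh38. Values of some genes are not reported here. Alternatives were RLE factors, library size only, DESeq2 1.42.0, other filters, mRNA rows only, an adjusted p under 0.01, the replicate number as a block, each library left out, and removal of length and GC trends.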

Additional observations from a re-analysis of the deposited data

How the results depend on the processing

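Of the 23 lower members, all kept a negative log2 fold change in every alternative. In place of 24 members past the threshold (23 lower, 1 higher), there were 39 (38 lower) without a filter on low counts, where 3449 genes passed in all, 9 (9 lower and 0 higher) at an adjusted p under 0.01, where 903 genes passed in all in place of 2595, and 37 (35 lower, 2 higher) with the GC trend removed, where 3235 passed in all. With both trends removed, 2 members were higher. At an adjusted p under 0.01 no member was called at over 2-fold, and the share of all tested genes was not counted there. Leaving out each library gave 10 to 29 members in all, 10 to 29 lower, 0 to 1 higher, 0 to 1 called at over 2-fold, and 1225 to 1962 genes in all. The median of the members ranged from -0.245 to -0.172 there, and was -0.091 with the length trend removed and -0.100 with both removed.

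With the replicate number as a block, 33 members were lower, 0 higher and 0 called at over 2-fold, and 3449 genes passed in all. Complex I then had 16 lower members in place of 10, and NDUFA4L2 did not pass (adjusted p = 0.0626). Deviations of same-numbered libraries correlated at 0.124, 0.149 and 0.067 over 15250 genes, the last below 0.1, so that the numbers were not taken to pair the samples, although each library correlated best with its own number, a hint from the data.

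Reversals concerned values near 0. The median of complex IV was 0.088 with the length trend and 0.036 with both trends removed. SDHB was at 0.009 with library size only, -0.123 to 0.040 without single libraries, 0.067 with the length trend and 0.054 with both removed. COX4I1 was at -0.246 to 0.074 without single libraries, and at 0.120 and 0.127 with the length and both trends removed. COX6A1 was at 0.030 with library size only, 0.006 with the block, -0.124 to 0.084 without single libraries, 0.204, 0.003 and 0.206 with the length, GC and both trends removed. ATP5G1 was at -0.022 to 0.128 without single libraries. COX7A2 was at 0.034 and 0.014 with the length and both trends removed. The cause of these differences was not tested. At this depth, members near the filter such as NDUFA4L2 rest on few counts.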
